A study of Mus musculus with 10 samples.

Results

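Lrrn3, Map7d2, Nrg4, Tm4sf19, Nabp1, Pamr1, Triqk and Cldnd1 are 8 mouse genes whose transcripts were far more abundant in platelets of adult mice than in platelets of pups. They were picked by symbol because they were strongly higher in the adult libraries, so the difference between the ages chose them and is given here as a description, with no test. The 8 are among 53819 gene symbols in each deposited table, and all 8 are among the 8198 genes that passed a filter on low counts. A gene can pass that filter through its adult values alone, so passing by itself says nothing about its level in pups. All 8 had counts in each of the 10 libraries.

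The data are RNA-seq read counts from platelets, the small anucleate blood cells that stop bleeding, with 5 libraries from pups (P7, taken to mean postnatal day 7) and 5 from adults. The P7 libraries carry the letters A, B, C, E and I, the adult libraries the letters A, B, C, G and H. Polyadenylated RNA was the labelled molecule, and cDNA was amplified from 1 ng of total RNA. The sources used here do not give strain, sex, the age of the adults, how platelets were pooled from animals or whether libraries came from separate animals, so p-values measure only the spread between these libraries, which may be technical. Total counts ran from 19431863 to 25029931 per library, and a count of 0 allows up to 0.120 CPM (counts scaled to a common library total) in the library with most reads and up to 0.154 CPM in that with fewest, for counting error only. These limits use total counts alone. The levels below are also scaled for RNA composition, with the lowest factor, 0.893, in adult H, so the limit there is higher. The 17 platelet markers in a list of cell type markers were all tested, and their summed level was 67525 to 95397 CPM in pups and 65303 to 97754 CPM in adults. The similar sums hide moves in both directions, with 4 of the 17 called higher in adults and 6 lower. Over all tested genes the shares were 13.9% and 13.8%.

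As background, platelets are shed by megakaryocytes of the bone marrow and, early in life, of the liver and spleen. They make almost no RNA of their own, so their transcripts are those the megakaryocyte loaded into them, less what has decayed. In bulk RNA, fewer cells of a type and less RNA per cell cannot be told apart. The 8 genes do not form a pathway. Lrrn3, Cldnd1 and Tm4sf19 encode membrane proteins, Nrg4 and Pamr1 encode an ErbB receptor ligand and a secreted protein, and Map7d2 encodes a microtubule-binding protein. Triqk encodes a small protein of the endoplasmic reticulum membrane and Nabp1 a single-stranded DNA-binding protein. Most are described in other cells, such as T cells for Lrrn3, neurons for Map7d2, fat cells for Nrg4, osteoclasts for Tm4sf19 and fibroblasts for Pamr1.

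RefSeq promoter windows of 300 bases (GRCm38.p6), with 250 bases before and 50 after a transcription start, matched 5 of the 8 genes, with 6 windows because Map7d2 has a pair of starts. The bases before the annotated gene are shown for the 2 genes with the largest fold changes, Map7d2 and Nrg4, and for Nabp1 and Cldnd1, to let their base composition and motifs be compared. Capitals mark motifs of transcription factor families active in megakaryocytes, searched on both strands. The GATA letters were AGATAA, or the same with a first T as in TGATAA, or with a last G as in AGATAG, or with both as in TGATAG. The ETS letters were CCGGAA, and the RUNX letters were TGTGGT or else TGCGGT, which reads ACCGCA from the other strand. The motif sets share no letters by overlap in the stretches shown. The full Map7d2 window held 2 RUNX matches, and the match outside the printed stretch is not marked. The Map7d2 stretch is chrX:159414322-159414491 on the plus strand, that of Nrg4 chr9:55283655-55283875 on the minus strand, that of Nabp1 chr1:51478476-51478649 on the minus strand, and that of Cldnd1 chr16:58727660-58727909 on the plus strand.
Map7d2: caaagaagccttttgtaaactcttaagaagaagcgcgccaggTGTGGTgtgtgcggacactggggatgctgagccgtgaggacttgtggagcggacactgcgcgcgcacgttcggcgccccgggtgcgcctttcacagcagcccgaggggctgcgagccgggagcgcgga
Nrg4: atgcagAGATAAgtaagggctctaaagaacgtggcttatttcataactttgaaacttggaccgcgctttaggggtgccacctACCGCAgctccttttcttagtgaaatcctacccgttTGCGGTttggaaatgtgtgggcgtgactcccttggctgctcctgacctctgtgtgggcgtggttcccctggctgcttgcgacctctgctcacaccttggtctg
Nabp1: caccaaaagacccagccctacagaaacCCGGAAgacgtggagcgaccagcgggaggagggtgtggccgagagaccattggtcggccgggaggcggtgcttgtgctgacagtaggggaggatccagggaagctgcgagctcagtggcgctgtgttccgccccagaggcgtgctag
Cldnd1: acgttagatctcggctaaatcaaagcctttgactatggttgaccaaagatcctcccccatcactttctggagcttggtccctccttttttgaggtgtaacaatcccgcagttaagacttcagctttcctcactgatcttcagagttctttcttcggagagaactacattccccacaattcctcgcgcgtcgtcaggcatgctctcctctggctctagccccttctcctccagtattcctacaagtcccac

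The windows differed in composition. GC content over the full window was 71.3% for the start of Map7d2 shown, 66.0% for Nabp1, 54.0% for Tm4sf19, 53.7% for Cldnd1, 51.0% for Nrg4 and 40.0% for the other start of Map7d2. The window of Map7d2 shown held 40 CpG dinucleotides, that of Nabp1 28, that of Nrg4 13, that of Cldnd1 11 and that of Tm4sf19 5. A GATA motif was in 1 of the 6 windows, against 29.8% of 32851 windows of this length, the ETS motif was in 1 of 6 (14.9% of all windows), and a RUNX motif was in 3 of 6, both of Map7d2 and that of Nrg4 (22.4% of all windows). The letters TATAAA were in 0 of 6 (13.6% of all windows). A match is only a run of letters, and binding was not measured.

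**Figure D1:**
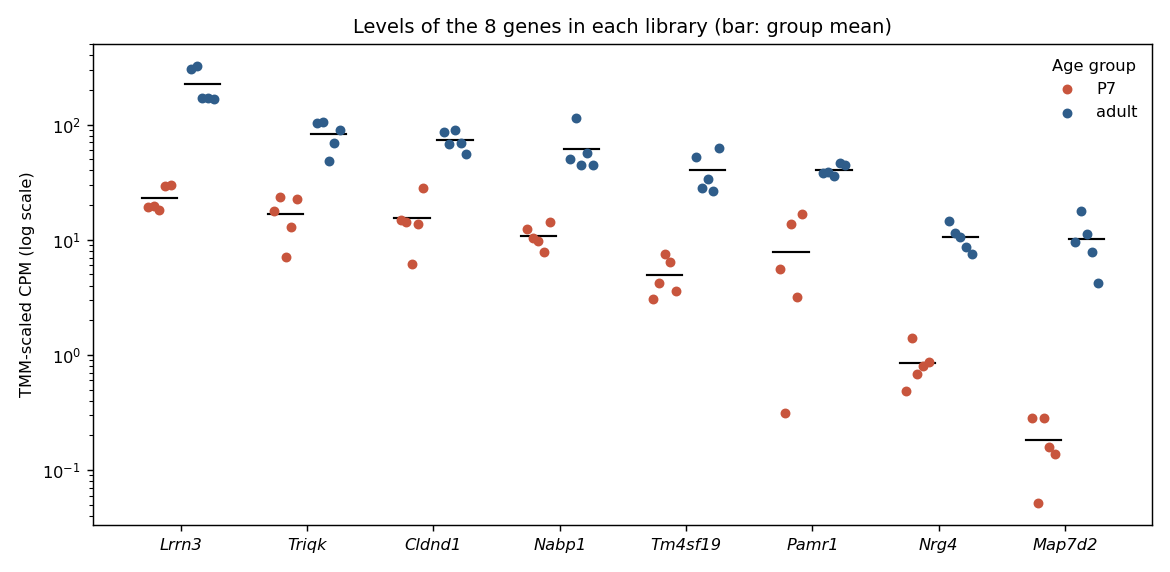
Each point is 1 library, with TMM-scaled CPM on a log axis, P7 in red and adult in blue, and a bar at the mean of 5 libraries. Each gene's adult points lie above all its P7 points, with the widest gap for Map7d2 and a P7 B value of Pamr1, at 0.310 CPM, far under the other P7 values.

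Levels below are CPM scaled by TMM factors, which correct for differences in RNA composition between libraries, and log2 fold changes are adult over P7 from edgeR with their standard errors. For 8 of the 8 genes every adult library was above every P7 library, which holds for 9.76% of all tested genes, and nothing is read from that count because this contrast chose them. The mean at P7 was 1.80% of the adult mean for Map7d2, 7.99% for Nrg4 and 10.2% for Lrrn3. It was 12.2% for Tm4sf19, 17.6% for Nabp1, 19.5% for Pamr1, 20.3% for Triqk and 20.9% for Cldnd1. The name "nearly restricted to adult platelets" therefore describes Map7d2 and goes against the values of the others, which are called adult-high genes here.

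Lrrn3 encodes a neuronal leucine-rich repeat membrane protein, and in human blood its transcript is best known from naive T cells. Its levels were 19.3, 19.8, 18.0, 29.4 and 29.7 CPM in P7 A, B, C, E and I, against 304.2, 324.2, 171.2, 171.3 and 167.1 CPM in adult A, B, C, G and H. Adult A and B stood above the other 3 adult libraries, and the lowest adult value was 5.62 times the highest P7 value. The means were 23.3 ± 5.80 and 228 ± 79.4 CPM (SD, n = 5 each), and the log2 fold change was 3.29 ± 0.25 (SE). Lrrn3 lies within the gene Immp2l, on the opposite strand, and the 2 share 0 exon bases in GENCODE M21. Immp2l, which encodes a mitochondrial peptidase subunit, was at 1.44 ± 0.742 CPM in pups and 1.00 ± 0.582 CPM in adult libraries (SD, n = 5 each), with a log2 fold change of -0.51 ± 0.49 (SE) that missed the threshold (adjusted p = 0.48 in edgeR).

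Beside Lrrn3, the 15 T and NK cell markers summed to 6.24 to 9.72 CPM at P7 and 9.21 to 17.5 CPM in adults (Lrrn3 itself is not on the list). Of 4 tested, 1 was called higher in adults and 0 lower. That gene was Nkg7, a cytotoxic granule gene, at 3.74 ± 0.784 CPM in pups and 9.72 ± 4.38 CPM in adult libraries (SD, n = 5 each; log2 fold change 1.38 ± 0.31, SE; adjusted p = 0.00465 in edgeR). The T cell receptor complex genes Cd3e, Cd3d and Cd3g were at 0.0333, 0.0402 and 0.108 CPM in pups and 0, 0.0725 and 0.0967 CPM in adults (means of 5), so the defining markers were at or near 0 at both ages. Lck, a T cell kinase gene, was at 1.43 ± 0.412 and 1.15 ± 0.720 CPM (SD, n = 5 each).

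Cldnd1 encodes a membrane protein with a claudin-like fold, related to the proteins of tight junctions. Its levels were 14.7, 14.2, 6.19, 13.8 and 28.3 CPM in P7 A, B, C, E and I, against 85.8, 67.4, 90.4, 69.8 and 55.5 CPM in adult A, B, C, G and H. P7 I was the highest P7 library and adult H the lowest adult library, and they came closest of all 8 genes, at 1.96-fold. The means were 15.4 ± 7.996 and 73.8 ± 14.2 CPM (SD, n = 5 each), with a log2 fold change of 2.26 ± 0.31 (SE).

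Tm4sf19 encodes a small membrane protein of the L6 family, relatives of the tetraspanins, described in osteoclasts and macrophages. Its levels were 3.06, 4.24, 7.52, 6.36 and 3.61 CPM in P7 A, B, C, E and I, against 52.9, 28.0, 34.0, 26.4 and 62.4 CPM in adult A, B, C, G and H. Adult A and H were the highest, and adult H was the lowest adult library for Lrrn3. The means were 4.96 ± 1.90 and 40.7 ± 16.0 CPM (SD, n = 5 each), with a log2 fold change of 3.04 ± 0.32 (SE).

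A relative that was not picked moved the same way. Tm4sf1, another L6 family gene best known from endothelial and tumour cells, was at 7.20, 7.03, 5.02, 6.28 and 6.66 CPM in P7 A, B, C, E and I, against 29.9, 17.6, 15.9, 29.7 and 49.3 CPM in adult A, B, C, G and H. Tm4sf1 was higher in adults by 2.14 ± 0.28 on the log2 scale (SE; adjusted p = 0.000105 in edgeR, kept in all 18 other fits). Of the other L6 genes, Tm4sf5 was at 0.515 ± 0.301 and 1.203 ± 1.77 CPM (SD, n = 5 each) and missed the threshold (adjusted p = 0.34 in edgeR), with 1 adult library, H, at 4.36 CPM. Tm4sf4 and Tm4sf20 were too low to be tested.

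Beside Tm4sf19, the 8 osteoclast markers summed to 5.19 to 8.54 CPM at P7 and 8.44 to 35.3 CPM in adults. Most of this was Dcstamp, which encodes a membrane protein needed for osteoclast fusion, at 3.46, 4.49, 4.62, 4.16 and 8.35 CPM in P7 A, B, C, E and I, against 35.0, 18.6, 18.2, 7.88 and 23.0 CPM in adult A, B, C, G and H. Dcstamp was the 1 gene of the list tested and was higher in adults by 2.03 ± 0.35 on the log2 scale (SE; adjusted p = 0.000674 in edgeR), although adult G, at 7.88 CPM, lay under P7 I. The other osteoclast markers were near or at 0. Acp5 was at 0.257 and 0.110 CPM, Ctsk at 0.295 and 0.0440 CPM and Oscar at 0.540 and 0.236 CPM (P7 and adult means of 5), and Ocstamp had 0 counts in all 10 libraries.

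Nrg4 encodes neuregulin 4, a ligand of the receptor ErbB4 that is best known as a signal released by brown fat. Its levels were 0.483, 1.395, 0.683, 0.800 and 0.867 CPM in P7 A, B, C, E and I, against 14.6, 11.5, 10.6, 8.70 and 7.52 CPM in adult A, B, C, G and H. It was low in each P7 library, where 12 to 27 reads were counted, and the lowest adult value was 5.39 times the highest P7 value. The means were 0.846 ± 0.340 and 10.6 ± 2.72 CPM (SD, n = 5 each), with a log2 fold change of 3.65 ± 0.31 (SE). Pooled over the 5 P7 libraries, 95 counts gave 0.819 CPM, with an exact 95% Poisson interval of 0.663 to 1.00 CPM that covers counting error only.

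Nrg4 shares 368 exon bases with Fbxo22, a ubiquitin ligase gene on the opposite strand, in GENCODE M21. The strand setting of the counting is not given, so reads there cannot be assigned to one or the other. Fbxo22 was at 2.08 ± 0.581 CPM in pups and 4.39 ± 1.69 CPM in adult libraries (SD, n = 5 each), and was called higher in adults, by 1.07 ± 0.32 on the log2 scale (SE; adjusted p = 0.0209 in edgeR). Ube2q2, the next gene along the chromosome and also of the ubiquitin pathway, was at 11.4 ± 1.75 and 21.5 ± 4.09 CPM (SD, n = 5 each) and was higher in adults by 0.91 ± 0.19 (SE; adjusted p = 0.00283 in edgeR).

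The receptors that Nrg4 and its relatives bind were scarcely detected in platelet RNA at either age. Erbb4 was at 0.0585 CPM at P7 and 0 in adults, Erbb3 at 0.0252 CPM and 0, Egfr at 0.0366 and 0.0210 CPM, and Erbb2 at 0.0365 and 0.0918 CPM (means of 5). Among 17 EGF-family ligands, receptors and shedding enzymes, 2 were abundant enough to be tested, both proteases that release such ligands. Adam17 was higher in adults by 0.64 ± 0.20 (SE; adjusted p = 0.0252 in edgeR), a call lost without P7 A, adult A or adult B (adjusted p = 0.0614, 0.0516 and 0.0600), with scaling by library size only (0.0605) and with no low-count filter (0.0515). Adam10, at 187 ± 37.2 and 248 ± 34.9 CPM (SD, n = 5 each), did not pass at 0.41 ± 0.16 (SE; adjusted p = 0.0747 in edgeR), and passed without P7 E (adjusted p = 0.0459).

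Beside Nrg4, the 7 adipocyte markers summed to 1.005 to 4.802 CPM at P7 and 3.72 to 8.78 CPM in adults. This was mostly Fabp4, a fatty acid-binding protein gene also active in endothelium and macrophages, at 2.80 ± 1.45 and 6.54 ± 2.95 CPM (SD, n = 5 each; log2 fold change 1.22 ± 0.41, SE; adjusted p = 0.0378 in edgeR). The call of Fabp4 was lost without P7 A, B or C or adult B, G or H (adjusted p = 0.0725 to 0.0892) and with scaling by library size only (0.0557). The defining fat cell markers Adipoq, Plin1, Lep and Cidea had 0 counts in all 10 libraries. Ucp1, the uncoupling protein of brown fat, averaged 0.0160 CPM in pups and 0.205 CPM in adult platelets. Its reads came from P7 E alone, at 0.0800 CPM, and adult C alone, at 1.02 CPM.

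Pamr1 encodes a secreted protein with CUB, EGF-like and protease-like domains, described in fibroblasts and regenerating muscle. Its levels were 5.55, 0.310, 13.7, 3.16 and 16.8 CPM in P7 A, B, C, E and I, against 38.1, 38.7, 35.6, 46.1 and 44.2 CPM in adult A, B, C, G and H. The pups scattered widely and the adults hardly at all, with 6 reads in P7 B and 367 in P7 I. The means were 7.90 ± 7.03 and 40.6 ± 4.41 CPM (SD, n = 5 each), and the log2 fold change of 2.36 ± 0.73 (SE) had the largest error of the 8. It was 2.05 ± 0.40 without P7 B, 2.83 ± 0.76 without P7 I and 3.19 ± 0.79 in limma-voom (SE).

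Beside Pamr1, the fibroblast markers went the other way. The 8 summed to 7.44 to 17.04 CPM at P7 and 0.301 to 7.51 CPM in adults, and of 4 tested 0 were called higher in adults and 3 lower. Col3a1, a collagen of connective tissue, was at 4.93 ± 2.17 CPM in pups and 0.156 ± 0.322 CPM in adult libraries (SD, n = 5 each; log2 fold change -4.96 ± 0.85, SE; adjusted p = 0.00110 in edgeR). Col1a2 was at 3.06 ± 1.62 and 1.86 ± 1.61 CPM and did not pass (SD, n = 5 each; adjusted p = 0.43 in edgeR). Of 24 genes of CUB-domain proteins, Cdcp1 alone was tested and did not pass, at 1.65 ± 1.22 and 1.22 ± 0.451 CPM (SD, n = 5 each; adjusted p = 0.56 in edgeR), and 11 had 0 counts in all libraries.

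Map7d2 encodes a microtubule-associated protein of the MAP7 family, which recruits the motor kinesin-1 to microtubules and is best known from neurons. Its levels were 0.282, 0.0517, 0.281, 0.160 and 0.137 CPM in P7 A, B, C, E and I, against 9.59, 17.7, 11.2, 7.88 and 4.19 CPM in adult A, B, C, G and H. Read counts were 1 to 7 in the P7 libraries and 73 to 411 in the adult libraries, and the lowest adult level was 14.9 times the highest P7 level. The means were 0.182 ± 0.0991 and 10.1 ± 4.96 CPM (SD, n = 5 each), and the log2 fold change of 5.71 ± 0.46 (SE) was the second of all tested genes in size. Pooled over P7, 22 counts gave 0.190 CPM, with an exact 95% Poisson interval of 0.119 to 0.287 CPM. Its P7 level is thus close to what 3 counts in a library stand for.

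The rest of the microtubule list had smaller fold changes than Map7d2. Of 16 tested genes of the MAP7 family, kinesin-1 and other microtubule-associated proteins, 3 were called higher in adults and 1 lower, with a median log2 fold change of -0.0078. Map1a, which stabilises microtubules, was higher by 1.66 ± 0.24 (SE; adjusted p = 0.000225 in edgeR), at 9.84 ± 1.74 CPM in pups and 31.2 ± 12.2 CPM in adult libraries (SD, n = 5 each). Mapre1, which encodes the plus-end protein EB1, was higher by 0.88 ± 0.25 (SE; adjusted p = 0.0169), and Map7d1, the family member next to Map7d2 in name, by 0.52 ± 0.18 (SE; adjusted p = 0.0464). The call of Mapre1 was lost when only the 6 libraries lettered A, B or C were fitted (adjusted p = 0.154). The call of Map7d1 did not hold when P7 A, B, C or E or adult C, G or H was left out (adjusted p = 0.0655 to 0.103), nor with scaling by library size only (0.0692) or no low-count filter (0.0935). Stmn1, which destabilises microtubules, was lower in adults (log2 -1.93 ± 0.38, SE; adjusted p = 0.00178), at 2.89 ± 1.24 and 0.750 ± 0.236 CPM (SD, n = 5 each).

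Other microtubule genes did not pass in the same edgeR test. Map7 was at 16.7 ± 2.83 and 14.2 ± 2.57 CPM (adjusted p = 0.39), the kinesin-1 heavy chain gene Kif5b at 187 ± 7.62 and 192 ± 30.4 CPM (adjusted p = 0.88), Mapre2 at 336 ± 42.1 and 344 ± 38.4 CPM (adjusted p = 0.88) and the platelet tubulin gene Tubb1 at 5191 ± 1019 and 4513 ± 996 CPM (adjusted p = 0.41; P7 and adult, SD, n = 5 each). Beside Map7d2, the 10 neuron markers summed to 64.5 to 121 CPM at P7 and 75.8 to 152 CPM in adults, nearly all of it Gad1, a glutamate decarboxylase gene, at 95.3 ± 21.4 and 121 ± 28.5 CPM (SD, n = 5 each). Of the 2 tested, Gad1 and Stmn2, 0 were called in edgeR, DESeq2 or limma-voom (adjusted p = 0.24 and 0.26 in edgeR), and unadjusted p-values were under 0.05 for 0. Without adult G, Stmn2 was called lower in adults (adjusted p = 0.0323). It was also called lower when only the 6 libraries lettered A, B or C were fitted (adjusted p = 0.0104 in edgeR). Stmn2 averaged 0.972 and 0.423 CPM. The markers Rbfox3, Snap25, Syt1, Map2 and Slc17a7 had means of 0.0161 to 0.514 CPM at P7 and were at 0 in each adult library. Tubb3, Nefl and Nefm, also on the list, averaged 0.495, 0.218 and 0.415 CPM at P7. In adults they averaged 0.00955, 0.0181 and 0.247 CPM.

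Triqk encodes a small protein of the endoplasmic reticulum membrane that is conserved among vertebrates, and it has no close relatives to list beside it. Its levels were 17.9, 23.5, 7.07, 12.9 and 22.7 CPM in P7 A, B, C, E and I, against 103, 104, 48.3, 69.3 and 89.1 CPM in adult A, B, C, G and H. P7 C and adult C were the lowest libraries of their groups, and the lowest adult value was 2.05 times the highest P7 value. The means were 16.8 ± 6.90 and 82.8 ± 23.95 CPM (SD, n = 5 each), with a log2 fold change of 2.30 ± 0.31 (SE).

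Nabp1 encodes SSB2, a single-stranded DNA-binding subunit of the SOSS complex, which works in DNA repair together with the proteins of Ints3 and Inip. Its levels were 12.3, 10.3, 9.69, 7.88 and 14.2 CPM in P7 A, B, C, E and I, against 50.5, 113, 44.2, 56.4 and 44.5 CPM in adult A, B, C, G and H. Adult B stood well above the other 4 adult libraries while the P7 libraries lay close together. The means were 10.9 ± 2.46 and 61.8 ± 29.2 CPM (SD, n = 5 each), with a log2 fold change of 2.51 ± 0.28 (SE), and of 2.19 without adult B. Its neighbour Cavin2, a caveolae gene abundant in platelets, was at 1068 ± 190 and 1021 ± 182 CPM (SD, n = 5 each) and did not pass (log2 fold change -0.07 ± 0.15, SE; adjusted p = 0.79 in edgeR).

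Of 16 tested genes of the SOSS and Integrator complexes and of single-stranded DNA binding, 1 was called higher in adults and 1 lower, with a median log2 fold change of -0.19. Inip was higher by 0.83 ± 0.25 (SE; adjusted p = 0.0233 in edgeR), at 5.62 ± 1.31 and 10.003 ± 3.17 CPM (SD, n = 5 each). The call of Inip was lost without P7 C, P7 E or adult G (adjusted p = 0.0613, 0.0563 and 0.0570). Rpa3, a subunit of the main single-stranded DNA-binding protein RPA, was lower in adults (log2 -2.54 ± 0.74, SE; adjusted p = 0.0192), at 0.721 ± 0.144 and 0.114 ± 0.133 CPM (SD, n = 5 each), and lost its call without P7 C (adjusted p = 0.0549). Nabp2, which encodes SSB1, the other form of the Nabp1 protein, was at 4.86 ± 0.744 and 4.01 ± 1.18 CPM (SD, n = 5 each) and missed the threshold (adjusted p = 0.45). Ints13, the most abundant of this list, was at 56.6 ± 58.9 and 116 ± 62.3 CPM (SD, n = 5 each) and missed the threshold (adjusted p = 0.38).

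**Figure D2:**
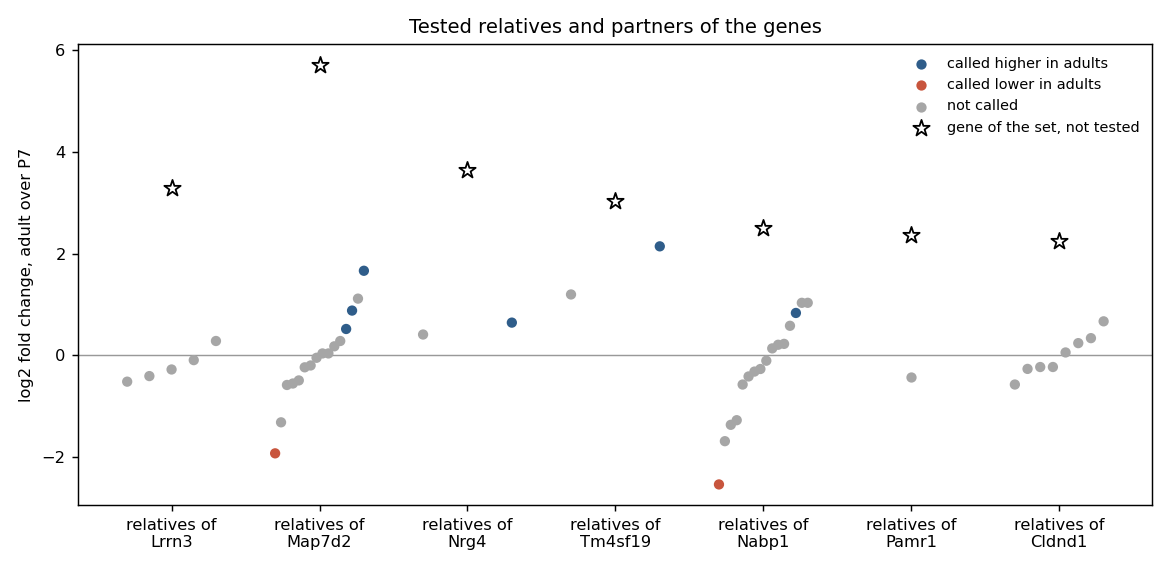
Each point is the log2 fold change, adult over P7, of 1 tested gene from the list of relatives and partners of the gene named under it, coloured by its call in edgeR. Stars, labelled not tested, show the named genes themselves (Triqk has no list). These were in the fit but are given no p-value, because this contrast chose them. The relatives lie around 0, with Tm4sf1 at 2.14 and Map1a at 1.66 the highest of them.

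Across the 7 lists of relatives and partners, 50 of 147 genes were tested, 6 were called higher in adults and 2 lower. That is 12% and 4% of those tested, against 13.9% and 13.8% of all tested genes, so the share called higher was near the background. Their median log2 fold change was -0.07, beside -0.05 over all tested genes. In 3 of the lists no gene was called in edgeR, DESeq2 or limma-voom. Among CUB-domain proteins this was the 1 gene tested. Among leucine-rich repeat membrane proteins 0 of 5 tested were, and the most abundant were Lrrc8b, at 272 ± 66.2 and 224 ± 37.0 CPM, and Lrrc8c, at 97.7 ± 21.2 and 91.4 ± 15.6 CPM, volume-regulated channel genes (SD, n = 5 each; adjusted p = 0.27 and 0.72 in edgeR). Among claudin-like and junction proteins 0 of 8 were, with Esam at 375 ± 99.8 and 473 ± 53.9 CPM and F11r at 238 ± 51.5 and 247 ± 73.0 CPM, adhesion molecules of platelets and endothelium (SD, n = 5 each; adjusted p = 0.16 and 0.88 in edgeR). Without P7 C, Esam passed at 0.49 (adjusted p = 0.0383). Unadjusted p-values were under 0.05 for 1 of the 5, 0 of the 8 and 0 of the 1.

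**Figure D3:**
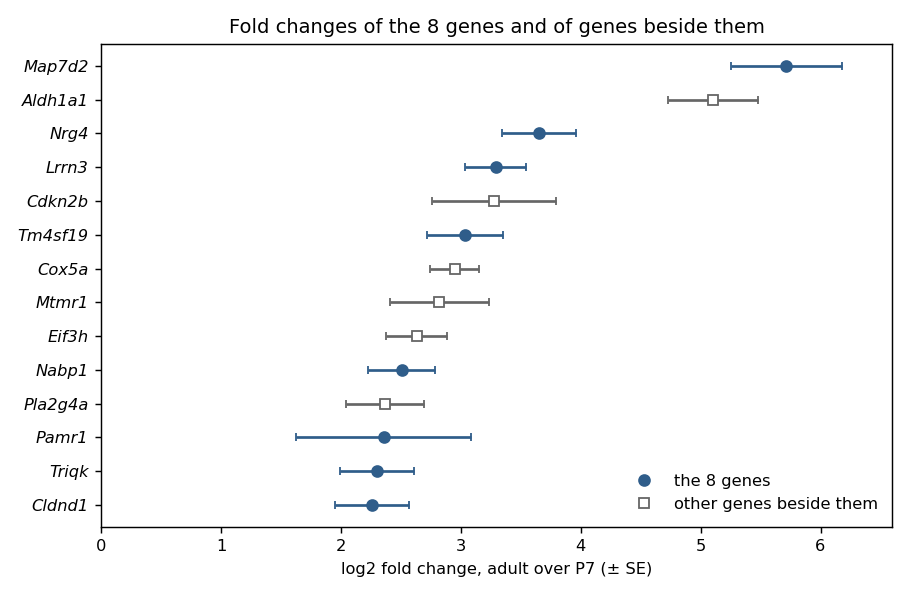
Points are log2 fold changes, adult over P7, with SE bars, for the 8 genes (filled circles) and for 6 other named genes with no overlap between the ages, a mean from 20 CPM up and a fold change between those of Cldnd1 and Map7d2 (open squares). The 8 are interleaved with the other 6, and among the genes drawn Map7d2 lies apart with Aldh1a1. Map7d2 and Nrg4 are under 20 CPM, and other genes under that level are not drawn. By fold change over all tested genes Map7d2 was at place 2 and Nrg4 at place 25.

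The 8 genes are not the only ones with fold changes of this size, since 115 of 8198 tested genes had one at or above that of Cldnd1. Among the genes with a name, no overlap and a mean from 20 CPM up, Cldnd1 was in place 12 of 339, just ahead of B2m at 2.19 ± 0.22 (SE), the class I light chain gene. Map7d2 and Nrg4 were under that level and so outside this order. Between the members lay Aldh1a1, which makes retinoic acid, at 5.11 ± 0.38, the cell cycle inhibitor gene Cdkn2b at 3.28 ± 0.52 and the respiratory chain gene Cox5a at 2.95 ± 0.20 (SE). Mtmr1, a phosphoinositide phosphatase gene, was at 2.82 ± 0.41, the translation factor gene Eif3h at 2.63 ± 0.25 and the phospholipase gene Pla2g4a at 2.37 ± 0.33 (SE).

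Levels of different genes are compared per kilobase of merged exons in GENCODE M21, which may not be the annotation that was counted. In adults the order of CPM per kilobase was Lrrn3 at 58.9, Tm4sf19 at 32.4, Cldnd1 at 28.8, Triqk at 23.2, Nabp1 at 7.27, Pamr1 at 6.71, Map7d2 at 2.45 and Nrg4 at 1.74. Tm4sf19 moves up in this order because its merged exons are short, at 1.26 kb. Ranges over the 5 adult libraries overlapped between neighbours in the order except between Triqk, at 13.5 to 29.3, and Nabp1, at 5.20 to 13.3, and between Pamr1, at 5.89 to 7.63, and Map7d2, at 1.02 to 4.29. At P7 the order of CPM per kilobase was Cldnd1 at 6.02, level with Lrrn3 at 6.02, then Triqk at 4.71, Tm4sf19 at 3.94, Pamr1 at 1.31, Nabp1 at 1.28, Nrg4 at 0.139 and Map7d2 at 0.0442.

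**Figure D4:**
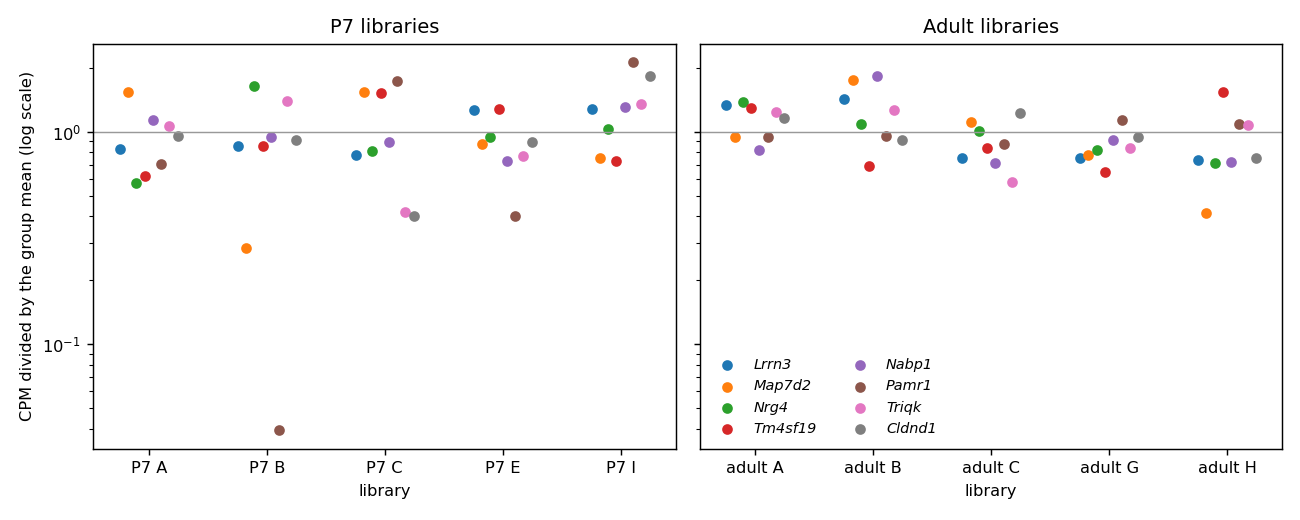
Each point is the CPM of 1 gene in 1 library divided by that gene's mean over the 5 libraries of the same age, on a log axis. Adult B is high for Lrrn3, Map7d2 and Nabp1 but low for Tm4sf19, and Pamr1 in P7 B lies far under its mean.

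Libraries of 1 age ranked differently from gene to gene. Adult B was the highest adult library for 4 of them, Lrrn3, Map7d2, Nabp1 and Triqk, and adult A, C, G and H for 1 each. Adult H was the lowest for 4, Lrrn3, Map7d2, Nrg4 and Cldnd1, adult C for 3 and adult G for 1. In pups, P7 I was the highest for 4 of the 8, and the summed level of the 8 genes was 116 CPM there against 63.2 to 74.5 CPM in the other P7 libraries and 446 to 705 CPM in adults. The closest pair among adult libraries was Nrg4 and Cldnd1, whose log2 levels, each centred on its adult mean, differed by a root mean square of 0.22. Lrrn3 and Nrg4 differed by 0.26, and the most distant adult pair was Map7d2 and Tm4sf19, at 1.07. Among P7 libraries the closest pair was Triqk and Cldnd1, at 0.36, and the most distant Pamr1 and Triqk, at 2.29.

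Spread between libraries differed among the genes. The SD of the log2 level over adult libraries was 0.16 for Pamr1, 0.28 for Cldnd1 and 0.37 for Nrg4, under the median of 0.46 over all tested genes. It was 0.47 for Triqk, 0.49 for Lrrn3, 0.55 for Tm4sf19, 0.56 for Nabp1 and 0.75 for Map7d2. At P7 it was 0.32 for Nabp1 and 0.35 for Lrrn3, under the median of 0.42, and 0.50 to 0.77 for Nrg4, Tm4sf19, Map7d2, Triqk and Cldnd1. Pamr1 was at 2.16, so the gene with the least spread in adults had the most in pups.

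By likeness of pattern, measured as the root mean square difference of centred log2 levels over the 10 libraries among 2669 or 2670 genes, a small set of genes recurred. Likeness over both ages includes the age difference that chose the 8. Nearest to Lrrn3 were Cep126, Cox5a and Eif3h, at 0.45 to 0.47, and nearest to Nrg4 were Lrrn3, Cox5a and Eif3h, at 0.43 to 0.56. Nearest to Tm4sf19 were Cox5a, Fbxl2 and Lrrn3, at 0.57 to 0.64. Nearest to Nabp1 were Eri1, Slc39a6 and Mmp19, at 0.31 to 0.36, the closest of all, and nearest to Triqk were Slc39a6, Afp and B2m, at 0.40 to 0.45. Nearest to Cldnd1 were Pla2g4a, Slc39a6 and Slc27a2, at 0.42 to 0.43. Map7d2 and Pamr1 had no close neighbour among these genes, which all had a mean of at least 10 CPM. Aldh1a1, Lrrn3 and Cep126 were at 0.75 to 1.14 from Map7d2, and Cep126, Smad1 and Clic5 at 1.10 to 1.19 from Pamr1. Cep126, Cox5a, Slc39a6 and Lrrn3 were each near 3 of the 8 genes.

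The 8 genes lie on chromosomes 1, 2, 4, 9, 12, 16 and X, with Tm4sf19 and Cldnd1 both on 16. Of 16 protein-coding genes next to them on either side, 14 had a row under that symbol and 6 were abundant enough to be tested, of which 1, Ube2q2 beside Nrg4, was called higher in adults and 0 lower. Transcript GC content also varied among the 8. It was 35.9% for Triqk, 41.9% for Nabp1, 43.2% for Lrrn3, 44.1% for Nrg4, 44.5% for Cldnd1, 47.5% for Map7d2, 51.8% for Pamr1 and 53.6% for Tm4sf19, beside a median of 49.2% over tested genes and 45.7% over those called higher and 52.4% over those called lower in adults. With the trend on GC content removed the log2 fold change of Triqk was 1.87 and the other 7 were at 2.14 to 5.72.

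**Figure D5:**
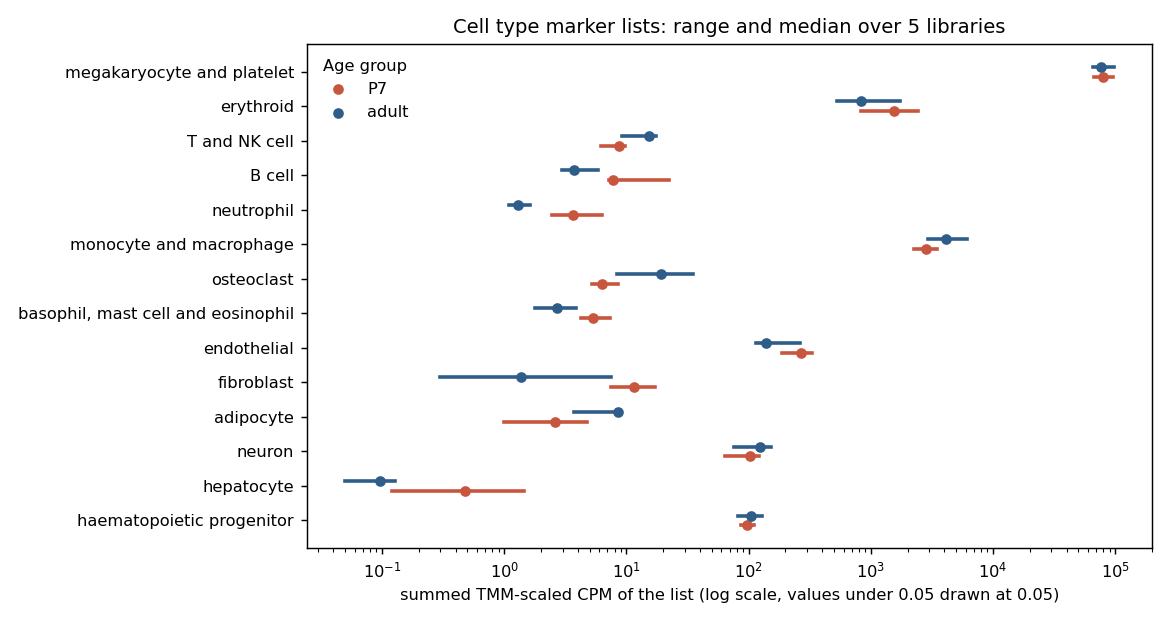
Lines are the range and points the median, over 5 libraries of each age, of the summed CPM of each cell type marker list, on a log axis. The sum of the platelet list lies at about the same level at both ages, although single genes of it moved in opposite directions. The median of the osteoclast list is higher and that of the fibroblast list lower in adults, with ranges that just touch.

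The remaining marker lists are values beside which the 8 genes can be read. Erythroid markers summed to 832 to 2433 CPM in pups and 525 to 1728 CPM in adults, mostly Hba-a1 with Hbb-bs next, and 0 of 9 tested were called in edgeR or limma-voom, 1 in DESeq2, and 2 had an unadjusted p under 0.05. Without adult H, Hba-a1 was called lower in adults (adjusted p = 0.0401). Monocyte and macrophage markers summed to 2240 to 3456 and 2911 to 6085 CPM, nearly all Lyz2, and 1 of 2 tested, Lyz2, was called higher in adults. The list's other markers averaged 0.0160 to 0.725 CPM in pups and 0 to 0.647 CPM in adults. Among them Cd68, a general macrophage marker, was at 0.595 and 0.445 CPM. B cell markers summed to 7.16 to 22.4 and 2.98 to 5.87 CPM, mostly Ighm, with Ighd at 0.686 and 0.540 CPM, and neutrophil markers to 2.45 to 6.30 and 1.09 to 1.63 CPM, led by Mmp8 and S100a9, with Ly6g and Cxcr2 at 0. Of those tested, 0 were called higher and 1 of 2 lower for B cells, and 0 of 1 was called for neutrophils in edgeR, DESeq2 or limma-voom, with no unadjusted p under 0.05. Endothelial markers, with Plvap and Tie1 the most abundant at both ages, summed to 189 to 329 and 115 to 265 CPM. Progenitor markers, nearly all Gata2 and Meis1, summed to 86.4 to 110.0 and 82.2 to 128 CPM. The other progenitor markers averaged 0.0965 to 1.64 CPM in pups and 0.0413 to 1.29 CPM in adults. Of the endothelial markers 2 of 5 tested were called lower in adults and 0 higher. Of the progenitor markers 1 of 3, Meis1, was called lower and 0 higher, and that call was lost without P7 B, C or E or adult A, B or C (adjusted p = 0.0807 to 0.118). Markers of basophils, mast cells and eosinophils, mostly Siglecf, stayed at or under 7.36 CPM. Siglecf was the 1 gene tested and was called lower in adults, a call lost without P7 A, P7 C or adult B (adjusted p = 0.0657, 0.0565 and 0.0548), and Cpa3, a mast cell protease gene, averaged 0.169 and 0.0804 CPM. Hepatocyte markers, among them Ttr and Apoa1, stayed at or under 1.45 CPM, with 0 tested. Of the 17 tested genes of the platelet list 4 were called higher in adults and 6 lower. Over all tested genes the shares were 13.9% and 13.8%. The 2 most abundant of the list by the mean over both ages were Itga2b, at 27108 ± 5599 and 18525 ± 2219 CPM, and Ppbp, at 7233 ± 2165 and 21408 ± 7710 CPM (SD, n = 5 each). Whether RNA of other cells has a part in the levels of the 8 genes was not tested.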

How the data were processed

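Platelet RNA of P7 and adult mice was sequenced as 5 libraries per age, with single-end reads of 75 nt from Nextera XT libraries per the labels' protocols. The deposited values are raw read counts per gene symbol, and the submitters' processing notes name STAR 2.7.9a, Salmon 1.5.2, fastp 0.23.1, featureCounts and Subread 2.0.1 for the authors' pipeline, with no role stated for each. The sources used here do not give the genome build, annotation or strand setting. The amplification has no molecular identifiers, so intervals cover counting error only.

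Genes were filtered with filterByExpr (minimum count 10, minimum total 15), scaled by TMM and tested with edgeR 4.0.16 (quasi-likelihood, robust, age as the only term, limma 3.58.1, R 4.3.3), and called at a Benjamini-Hochberg adjusted p under 0.05. All adjusted p-values are over the 8198 tested genes. The standard error is the size of the log2 fold change divided by the root of the F statistic. Alternatives were RLE or no scaling, DESeq2 1.42.0, limma-voom, other filters, each library left out and a replicate block. Removal of the GC trend (lowess) was added after the data were seen. The fits were tested on simulated counts with 200 genes changed 2-fold or 4-fold. Of the 2-fold changes edgeR recovered 22.3%, DESeq2 33.0% and limma-voom 21.3%. Of the 4-fold changes they recovered 80.4%, 88.7% and 74.2%. False calls were 1.98%, 14.0% and 2.13% of their calls. In the data far more genes were called, 2272 of 8198, so these shares need not hold there. Changed genes were missed in the simulation, so missing the threshold does not show that a gene is unchanged.

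The members, gene lists and motifs were chosen with earlier results of these data known. Named were all 8 members, called genes of each family list (up to 6) with its 2 most abundant, the 2 most abundant genes of each marker list, the 3 nearest genes by pattern (mean of at least 10 CPM) and up to 12 genes beside the members in fold change (mean of at least 20 CPM). Cd3 genes, other low markers, receptors and chromosomal neighbours were named after their values were seen. Log2 levels used a prior count of 2.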

Additional observations from a re-analysis of the deposited data

Results flagged for a closer look

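In 4 of 52 groups of 5 libraries, over the 8 adult-high genes and the named relatives, 1 library stood apart by Dixon's ratio of its gap to the group's range, above 0.71. Chance gives about 1 in 20 groups. Nabp1 in adult B was at 113 CPM, against 44.2 to 56.4 CPM in the other adult libraries. Map1a in adult H was at 52.4 CPM, against 21.0 to 28.9 CPM, and Tm4sf5 in adult H at 4.36 CPM, against 0.171 to 0.585 CPM. Ints13 in P7 C was at 161 CPM, against 19.96 to 38.6 CPM in the other P7 libraries.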

How the results depend on the processing

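The log2 fold changes of the 8 genes stayed above 0 in each alternative that kept the gene, and Map7d2 and Nrg4 were not kept when a mean of 10 CPM was required. With 1 library left out they ran from 2.05 for Pamr1 without P7 B to 5.93 for Map7d2 without P7 A. They moved by more than the SD between libraries in 3 cases, all with only the 6 libraries lettered A, B or C: Lrrn3 was at 3.78 with the replicate block and 3.84 without it, and Cldnd1 at 2.90 with the block. Pamr1 was at 3.25 with the block and 2.55 without it in these libraries. CPM by library size alone moved no group mean of the 8 by more than its SD. Genes called higher in adults numbered 646 when 10 CPM was required and 756 with the block, against 1140 (996 in the same 6 libraries without it), and genes called lower 569 and 660, against 1132 (890 without the block). Of family genes 14 were called with no filter, 5 when 10 CPM was required and 4 with the block, against 8. Those called higher numbered 2 with the block, against 6, and those called lower 9 with no low-count filter and 0 when 10 CPM was required, against 2. The stricter filter tested fewer genes; for the block and the run with no filter the cause was not tested. With 1 library left out, genes called higher ran from 964 to 1234, genes called lower from 879 to 1160, family genes from 6 to 9, those higher from 4 to 6 and those lower from 1 without P7 C to 4 without P7 B, adult C or adult G. Deviations of same-letter libraries correlated at -0.04 to 0.06, and 0 of 3 correlated best with their own letter. What the letters stand for is not given, and 3 pairs are too few to settle whether they pair the libraries. In those 6 libraries Mapre1, Map7d1, Inip and Rpa3 lost their calls with the block (adjusted p = 0.180, 0.2302, 0.246 and 0.0973) and without it (0.154, 0.147, 0.262 and 0.0686), and Adam17 only with it (0.0627). Fabp4 lost its call only without the block (0.0533). Calls were gained there by Stmn2 with the block (0.0397) and without it (0.0104), by Adam10 without it (0.0332) and by Hba-a1 with it (0.0254). Depth limits the P7 level of Map7d2 most, at 1 to 7 reads, while Pamr1 varies most between P7 libraries.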
